A study of Arabidopsis thaliana with 14 samples.

Results

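Transcript levels were compared between gir, an Arabidopsis thaliana mutant named for glucose-inhibited root elongation, and the wild-type accession Col-7. The transcripts described here had lower values in gir roots than in Col-7 roots, while their values in inflorescences differed little between the lines. A probe set was taken when it met 3 conditions. Its mean intensity on the Col-7 root arrays was at least 150. In roots, gir minus Col-7 was at or under -0.6 on the log2(intensity + 26) scale, with every gir array below every Col-7 array. In inflorescences the same difference lay between -0.4 and 0.4. Of 22746 probe sets without the controls, 98 met the conditions (0.431%), and 92 were kept after 6 had been set aside by gene name. Of the 92, 47 named 1 gene each, 1 named several genes and 44 are unnamed here. The members were thus chosen by their root and inflorescence intensities. Because the conditions used both genotype differences, the members' genotype differences below are descriptions without a test.

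The gir root samples (3 arrays) came from mutant plants aged 21 days on plates with 4% glucose, and the Col-7 root samples (3 arrays) from wild-type plants of the same age and medium. The gir and Col-7 inflorescence samples (4 arrays each) came from plants aged 33 days on soil, with opened and opening flowers removed. The series' design text gives 11 days without glucose and then 10 days on 4% glucose for the roots, whereas the sample protocol gives 7 days on the first plate, so the durations are uncertain. The labels name no allele for gir, and no table used here ties the mutated gene to a probe set, so its level was not analysed here.

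The deposited values are MAS5 intensities, scaled so that the mean without the lowest and highest 2% was 499.8 to 499.9 on every array. The 40th percentile of an array lay at 111 to 120.4 for roots and at 126 to 140.2 for inflorescences, and a value below it is called dim here. The 2 measured root hair markers, EXPA7 and EXPA18, summed to 2251 to 2368 in gir roots and 1933 to 2061 in Col-7 roots, and to 36.0 to 91.5 in gir inflorescences and 25.5 to 57.7 in Col-7 inflorescences. The 5 measured late pollen genes summed to 255 to 480.5 in gir inflorescences and 2682 to 3204 in Col-7 inflorescences, and to at most 40.4 in any root sample. Both lists were highest in the tissue they mark. In roots 1 of the 2 root hair markers was called higher in gir, and its part in the values below was not tested. In whole roots, fewer cells of a type and less RNA per cell cannot be told apart.

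A growing root builds wall around elongating cells and secretes proteins into it. Class III peroxidases cross-link or loosen wall polymers, dirigent proteins steer the coupling of phenolic radicals, and small lipid-transfer and proline-rich proteins sit in the wall or at the cell surface. Microtubules under the plasma membrane guide cellulose deposition, and proteins of the SPIRAL1 family bind them and affect the direction of root growth. Root plastids carry their own genome, whose genes encode photosynthetic complexes as well as their own expression machinery.

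Across the 92 members the gir minus Col-7 difference in roots ran from -2.38 to -0.60 with a median of -0.74, against a median of -0.01 over all 13799 probe sets tested in roots. On the linear scale the mean intensity in gir roots was 34.3% to 86.4% lower than in Col-7 roots, with a median of 42.5%. Most members lay close to the threshold, since 61 were above -0.8 and 14 were at or under -1. By limma's test 90 of the 91 members tested passed an adjusted p of 0.05 as lower in gir, where 6.36% of all probe sets tested did, and this count follows from the choice. Among the 12785 probe sets with a Col-7 root mean of at least 150, 153 fell past -0.6 without overlap (1.2%), and 113 rose past 0.6 without overlap (0.884%). The lowest gir value fell on replicate 1 for 32 members, on replicate 2 for 37 and on replicate 3 for 23, and the highest Col-7 value on replicates 1, 2 and 3 for 38, 21 and 33. The gap between the highest gir array and the lowest Col-7 array was 0.03 to 1.91 on the log2 scale, with a median of 0.51.

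Of the 47 named members, 15 encode proteins known or predicted to be secreted or to act in the wall. Roles are given from general knowledge of the genes and were assigned by hand after the values had been seen. The share of such genes among all probe sets was not counted, so this is no statement that they are over-represented. Lists of peroxidases, lipid transfer proteins, extensins, xyloglucan endotransglucosylases and pectin enzymes, matched on gene names alone, held 0 members. Genes known only by a locus name can be missed this way, and the lipid transfer list held 0 measured probe sets. In the 15 genes the mean intensity in gir roots was 36.6% to 68.0% lower than in Col-7 roots. AT4G12490, a proline-rich protein of the lipid-transfer superfamily, had intensities of 90.9, 80.3 and 76.4 in gir roots, against 354, 184 and 236 in Col-7 roots. The gir arrays were all dim and close together, while Col-7 replicate 1 stood well above the other Col-7 arrays. Its difference was -1.35 ± 0.18 (SE, n = 3 each). AT2G37870, another lipid-transfer relative, was far brighter, at 2165, 1890.2 and 2623 in gir roots and 5232, 5209 and 5341 in Col-7 roots (-1.24 ± 0.11). For this gene the Col-7 arrays lay almost on top of each other and gir replicate 3 was the highest of the mutant arrays. AT4G33550 of the same superfamily had 2892, 3038 and 3884 in gir roots and 6243, 6328 and 4948 in Col-7 roots (-0.83 ± 0.13). Here gir replicate 3 and Col-7 replicate 3 came closest to each other.

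Both peroxidase genes among the named members kept the groups well apart. AT1G49570 read 310.3, 365 and 335 in gir roots, against 723, 583 and 679 in Col-7 roots (-0.92 ± 0.10). AT5G64100 was at 1462, 1391 and 1509 in gir roots and 2717, 2539 and 2829 in Col-7 roots (-0.88 ± 0.07), with little spread in either line. AT2G43600, of the chitinase family, was at 83.3, 64.4 and 83.2 in gir roots, against 159.6, 203 and 171 in Col-7 roots (-0.98 ± 0.11), with all 3 gir arrays dim. A pair of dirigent-like genes differed by similar amounts at unlike intensities. AT1G55210 averaged 2753 ± 96.0 in gir roots, against 4700.5 ± 483 in Col-7 roots (SD, n = 3 each). AT1G58170 averaged 325 ± 9.15 in gir roots, against 549 ± 48.5 in Col-7 roots.

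The other wall or secreted members included a pair of peptidase-family genes, the subtilase gene ATSBT5.2 (-0.77 ± 0.12) and the serine carboxypeptidase-like gene scpl31 (-0.62 ± 0.16). Their relatives were picked after the members were known and found by gene symbol alone, so the families are covered in part. Of 4 other subtilases tested in roots 0 were called lower and 1 higher, by limma over all probe sets. Of 15 other serine carboxypeptidase-like genes 2 were lower and 2 higher. Over all tested probe sets 6.36% were called lower and 5.49% higher. The calls of scpl35 (lower) and SCPL34 (higher) each ended in 7 of 11 alternative fits, those of SBT3.5 and scpl40 (higher) in 1, and that of SCPL45 (lower) in 0. PR-1-LIKE and AT1G50060 encode small proteins of the pathogenesis-related 1 type. PR-1-LIKE averaged 370.2 ± 21.2 in gir roots, against 597 ± 23.9 in Col-7 roots, and AT1G50060 averaged 193 ± 43.7 in gir roots, against 340.0 ± 12.4 in Col-7 roots. The SKU5-related gene sks15 (-0.71 ± 0.09), the polygalacturonase-family gene AT1G02460 (-0.76 ± 0.09) and AT5G10130 of the Ole e 1 family (-0.71 ± 0.12) completed the group. Their gir arrays read 257, 229 and 283 for sks15, 121, 135 and 145 for AT1G02460 and 749, 534 and 689 for AT5G10130. Against these, the Col-7 arrays read 403, 433 and 474 for sks15, 226, 249 and 260.1 for AT1G02460 and 1121, 1049.7 and 1073 for AT5G10130.

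**Figure D1:**
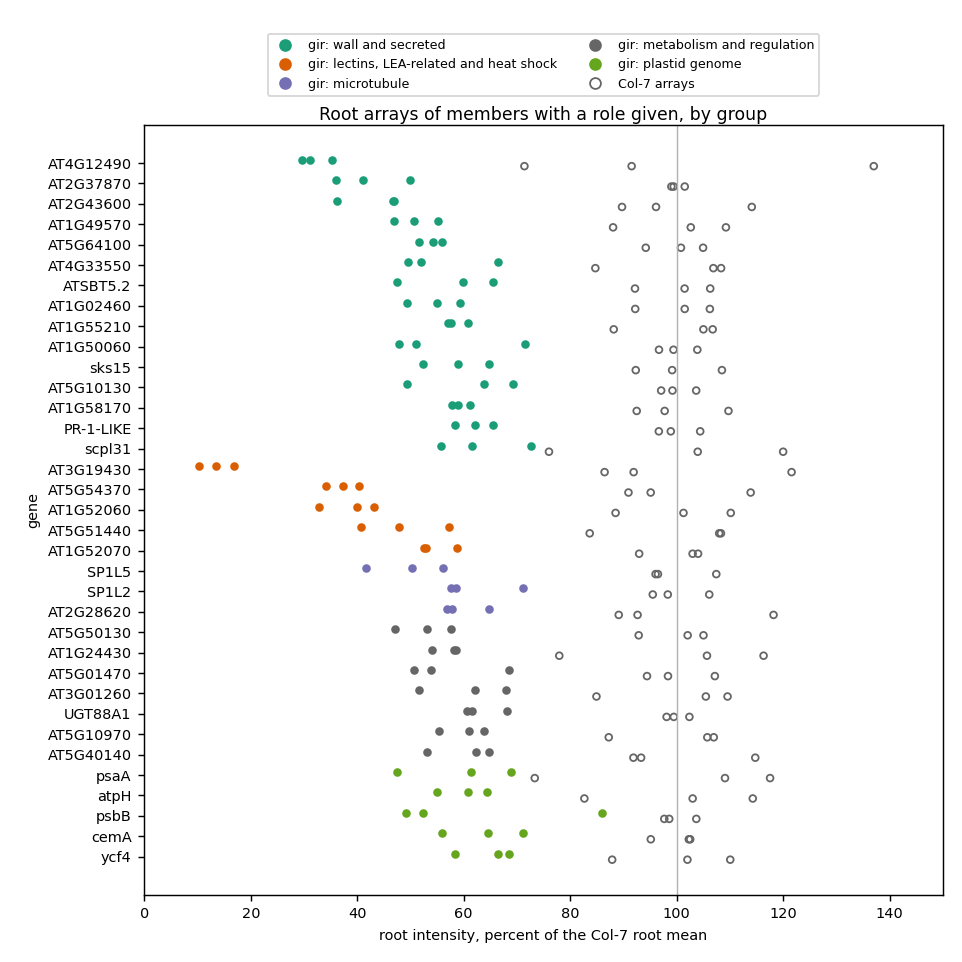
Root intensities of the 35 members with a role given, each array as a percent of that gene's Col-7 root mean (x axis), with filled points for the 3 gir arrays above open points for the 3 Col-7 arrays. In every gene the filled points lie left of the open ones, which the choice of members fixes, and AT3G19430 lies farthest left.

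The largest fall among named members was that of AT3G19430, a relative of late embryogenesis abundant (LEA) proteins. It had 52.6, 42.1 and 31.9 in gir roots, against 269, 286 and 378 in Col-7 roots, a difference of -2.30 ± 0.14. All gir arrays were dim, so the size of the difference depends on the pseudocount: it was -2.67 with a pseudocount of 8 and -1.52 with 100. AT5G54370, also annotated as LEA-related, stayed bright in both lines, at 401, 475 and 439.7 in gir roots and 1119, 1070.2 and 1340.4 in Col-7 roots (-1.37 ± 0.10).

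AT1G52060 and AT1G52070, which encode jacalin-type mannose-binding lectins, are neighbours on chromosome 1 with no protein-coding gene between them. The first read 397, 302 and 367 in gir roots and 931, 814 and 1012 in Col-7 roots (-1.31 ± 0.12). The second read 1080.0, 964 and 971 in gir roots and 1708, 1892 and 1911 in Col-7 roots (-0.85 ± 0.08). The groups were far apart in both genes. The small heat shock protein gene AT5G51440 was at 255, 300.0 and 358 in gir roots, against 676, 678 and 524 in Col-7 roots (-0.98 ± 0.14). Its Col-7 replicate 3 was the low array of its group, and its gir replicate 3 the high one.

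**Figure D2:**
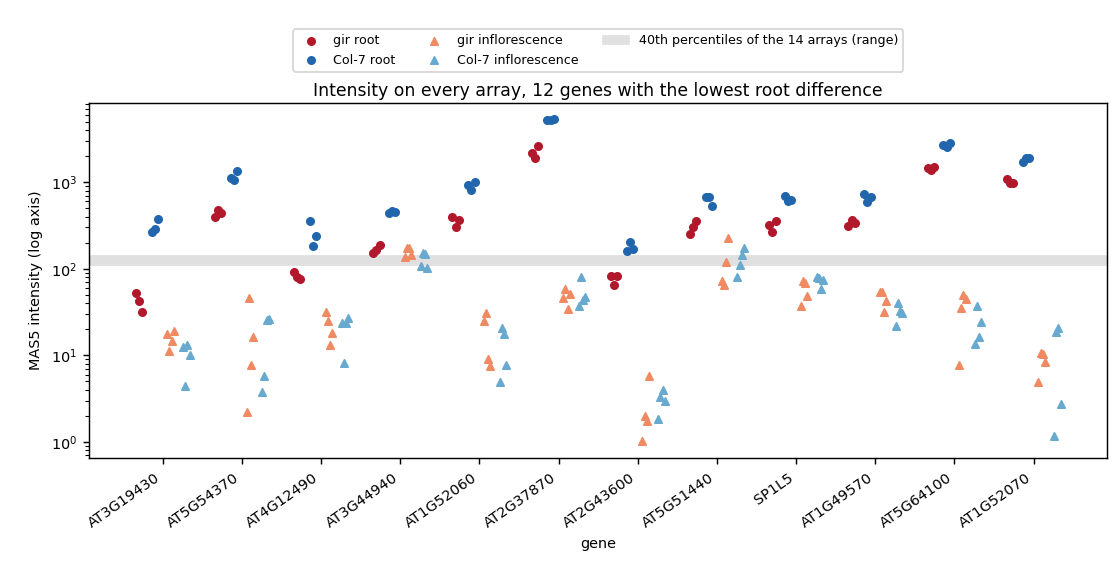
Intensities (log axis) on all 14 arrays for the 12 named members with the lowest root difference, as points for gir roots, Col-7 roots, gir inflorescences and Col-7 inflorescences. The grey band spans the 40th percentiles of the arrays, from 111 to 140.2. For 10 of the 12 genes every inflorescence point lies below the band, and AT3G44940 and AT5G51440 reach into or above it.

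3 members act on microtubules. SP1L5, a SPIRAL1-like gene, had 320.1, 266 and 357 in gir roots and 685, 612 and 615 in Col-7 roots (-0.97 ± 0.11). SP1L2 of the same family had 729.5, 718 and 886 in gir roots and 1226, 1191 and 1323 in Col-7 roots (-0.67 ± 0.10). The kinesin gene AT2G28620 had 176, 157 and 155 in gir roots and 321, 252 and 242 in Col-7 roots (-0.65 ± 0.11). Of the other measured SPIRAL1-like genes none was called lower. SPR1 was at 0.19 ± 0.10 (SE, adjusted p = 0.26 by limma over all probe sets) and SP1L3 at 0.04 ± 0.07 (adjusted p = 0.72), while SP1L4 rose by 0.55 ± 0.10 (adjusted p = 0.0083). With dim probe sets kept, the rise of SP1L4 did not pass (adjusted p = 0.051), and the alternatives gave adjusted p values between 0.0073 and 0.051. The family was picked after the members were known.

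Of 7 members with roles in metabolism or regulation, the difference ran from -0.84 to -0.60. AT5G50130, of the short-chain dehydrogenase type, had 167, 204 and 188 in gir roots and 373, 362 and 329.8 in Col-7 roots. AT1G24430, of the BAHD acyltransferase family, had 233, 253 and 252 in gir roots and 503, 457 and 337 in Col-7 roots, with Col-7 replicate 3 well below the other two. UGT88A1, a UDP-glycosyltransferase, had 743, 756 and 835 in gir roots and 1219.9, 1203 and 1256 in Col-7 roots, with little spread in either line. The methyltransferase-like gene AT5G01470 (-0.71 ± 0.11), the mutarotase-like gene AT3G01260 (-0.66 ± 0.12), the zinc finger gene AT5G10970 (-0.64 ± 0.09) and the U-box gene AT5G40140 (-0.60 ± 0.10) made up the rest. Of 26 gene lists matched on gene names without descriptions, only that of UDP-glycosyltransferases held a member, UGT88A1. Most named members carry only a locus name, which such lists can hardly match, so the empty lists say nothing about those families. In that list 3 of 29 tested probe sets were lower in gir roots and 3 were higher, with a median difference of -0.05. The lower ones include UGT88A1 itself, which was chosen as lower. Over all tested probe sets 6.36% were called lower and 5.49% higher.

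AT3G44940 had the largest difference among the 12 named members for which no role is given here. It read 152, 163 and 186 in gir roots and 443, 469 and 451 in Col-7 roots (-1.32 ± 0.08), and 135, 172, 176 and 143 in gir inflorescences and 107, 153, 149.96 and 103 in Col-7 inflorescences. Its Col-7 roots thus stood apart from the other 3 groups, in part through the choice of members. Of its Col-7 inflorescence arrays 2 were dim, and with a pseudocount of 100 its root difference was -1.055. The other 11 lay between -0.84 and -0.63. Among them AT1G03820 was bright, with 1728, 1611 and 1734 in gir roots and 2992, 2916 and 3082 in Col-7 roots. AT2G33850 was about as bright, with 1555, 1799 and 1796 in gir roots and 2810.1, 2599 and 2705 in Col-7 roots.

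The set also held 5 genes of the plastid genome. psaA (photosystem I reaction centre) read 503, 564 and 388 in gir roots and 601, 894 and 963 in Col-7 roots. psbB (photosystem II core antenna) read 359.7, 206 and 219 in gir roots and 413, 409 and 434 in Col-7 roots. In both genes 1 array came close to the other line, Col-7 replicate 1 for psaA and gir replicate 1 for psbB. atpH (a membrane subunit of the ATP synthase) read 425, 362 and 401 in gir roots and 545, 679 and 754 in Col-7 roots. cemA (an envelope membrane protein) read 1548, 1404 and 1215 in gir roots and 2068, 2229 and 2223 in Col-7 roots, and ycf4 (photosystem I assembly) 880.5, 855 and 749.8 in gir roots and 1129.8, 1312 and 1415 in Col-7 roots. cemA and ycf4 are neighbours on the plastid genome.

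The plastid genome was then examined as a whole, a group picked after the members were known. Of 69 plastid probe sets 5 are members, chosen as lower, so the other 64 carry the comparison. Of these 64, 54 were lower in gir roots on average, with a median difference of -0.29. Of all probe sets tested in roots 51.8% were lower. The 64 include probe sets too dim to be tested, which the 51.8% leaves out, so the sets are not quite alike. By limma's test 11 of the 51 non-members tested in roots were lower, where 6.36% of all tested probe sets were called lower and 5.49% higher. With the 5 members, 16 of 56 were lower and 0 higher (38 lower and 2 higher at an unadjusted p under 0.05), and the median over the 69 was -0.32 in roots and -0.06 in inflorescences. That count of 16 was 5 without gir replicate 2, 6 without gir replicate 3, 5 without Col-7 replicate 2 and 7 without Col-7 replicate 3. It was 20 without gir replicate 1 and 13 without Col-7 replicate 1. With dim probe sets kept it was 3, and it was also 3 when all 14 arrays were fitted jointly. The median stayed between -0.35 and -0.25 in all of these. These counts and medians include the 5 members and were not made for the other 64 alone. How steady the count of 11 non-members is was therefore not shown. Calls over all probe sets, lower and higher together, also fell from 1636. Without gir replicates 1, 2 and 3 in turn they were 863, 814 and 1142. Without Col-7 replicates 1, 2 and 3 in turn they were 1203, 1038 and 1216. They were 616 with dim probe sets kept and 707 in the joint fit. Lower calls alone were not counted in these fits, so the plastid share cannot be set against them. Summarised over the 69, the mean log2 level was 9.24, 9.05 and 9.09 in gir roots, against 9.41, 9.42 and 9.42 in Col-7 roots.

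Control signals also differed between the lines in the root arrays. The 25S ribosomal RNA control signal was 774, 389.5 and 634 in gir roots, against 1158, 1270.2 and 865 in Col-7 roots. In inflorescences it rose with replicate number in both lines. It was 359, 954, 2768 and 8660 in gir inflorescences and 345, 835, 3424 and 6585 in Col-7 inflorescences. For the actin control, signal at the 3' end over that at the 5' end was 1.72, 1.69 and 1.60 in gir roots and 1.53, 1.56 and 1.40 in Col-7 roots. RCA and LHCB4.1, the measured nuclear genes of the green tissue list, summed to 2566 to 2744 in gir roots and 2647 to 2797 in Col-7 roots, which overlap. These are the same root arrays on which all 92 members were chosen. The part of these controls in the plastid values, or in those of the other members, was not tested. In inflorescences 0 of 63 tested plastid probe sets passed limma's test in either direction (4 lower and 0 higher at an unadjusted p under 0.05), where 12.5% of all tested probe sets were called lower and 12.5% higher. That fit took no account of replicate number. With the number as a block, 8 were lower and 2 higher, where 15.5% of all probe sets tested were called lower and 19.4% higher in the same fit.

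**Figure D3:**
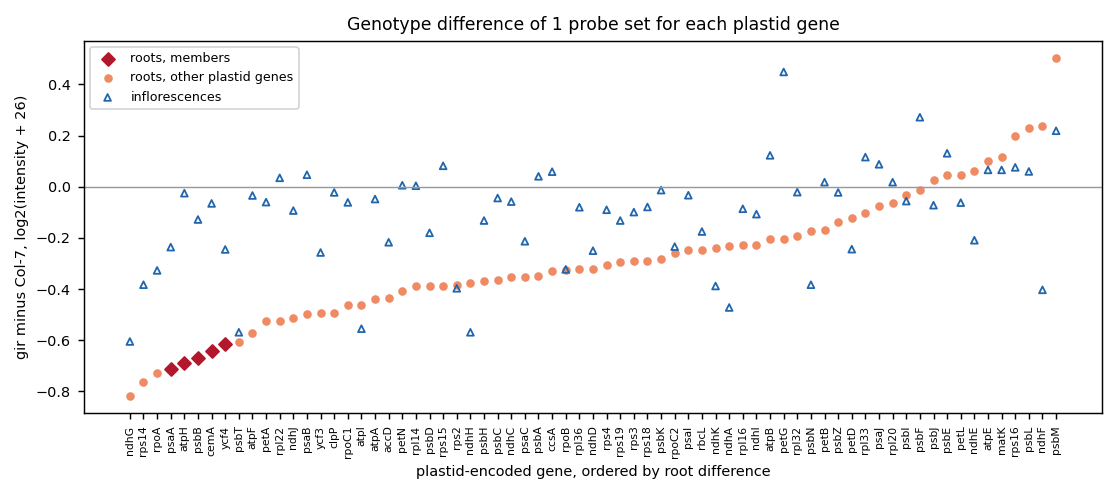
Difference of gir minus Col-7 on the log2(intensity + 26) scale (y axis) for the 69 plastid-encoded genes, ordered by their root difference (x axis), with root values as filled points (members as diamonds) and inflorescence values as open triangles. Root values run below 0 for 59 genes, and inflorescence values scatter around a median of -0.06.

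In inflorescences most members were hardly measured. On all 8 inflorescence arrays 49 of the 92 members (53.3%) were dim, as were 9.4% of the 12785 probe sets with a Col-7 root mean of at least 150. For these 49 the small genotype difference in inflorescences says little, since both lines were near background. Enough signal to be tested in inflorescences was present for 37 members. Their differences ran from -0.36 to 0.37, bounded by the choice of members. By limma's test 1 of these was called lower in gir inflorescences and 2 higher, counts that the choice also limits. Over all probe sets tested there, 12.5% were called lower and 12.5% higher. Inflorescence means of the 92 ranged from 2.64 to 13312.5 in gir, with a median of 88.7, and from 1.08 to 14935 in Col-7, with a median of 73.1.

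The difference between tissues in Col-7 was no condition of the choice, but the choice used both groups in it. Col-7 root arrays had to lie above the gir ones, and a probe set that is dim in inflorescences readily meets the inflorescence condition. The counts below are therefore a description, and the adjusted p values of members do not allow for the choice. They are set beside all probe sets over the same root floor. Of the 91 members tested, 70 (76.9%) were lower in Col-7 inflorescences than in Col-7 roots and 14 (15.4%) were higher, by limma with an adjusted p of 0.05. Over the floor, 47.1% of all probe sets tested were called lower in inflorescences and 27.8% higher. Over the floor and within the inflorescence band, 45.8% were lower and 27.8% higher. Members dim in inflorescences could hardly come out other than lower there. Their Col-7 root mean was at least 150, and dim inflorescence values lay under 140.2. Of the 43 members not dim on all 8 inflorescence arrays, a split made after the values were seen, 22 (51.2%) were lower and 14 (32.6%) higher, with a median difference of -0.38. Probe sets meeting the same floor, band and signal were lower in 40.4% and higher in 30.5%, with a median of -0.08. Over all members tested, the median difference, inflorescences minus roots, was -2.28 for the members and -0.19 for all probe sets over the floor. At least 4-fold lower were 48 members (52.7%), against 9.5% of probe sets over the floor. With dim probe sets kept all 92 could be tested, and 71 were lower and 14 higher, against 45.5% and 26.6% over the floor. Array medians were 0.15 higher in Col-7 inflorescences than in Col-7 roots on the log2 scale, and after median centring 73 were lower and 13 higher. Organ, plant age, growth medium and glucose differ together here and cannot be told apart.

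The 5 named members with the strongest preference for Col-7 roots encode secreted proteins or lectins. AT4G33550 read 29.4, 25.4, 39.1 and 37.1 in Col-7 inflorescences, against 6243, 6328 and 4948 in Col-7 roots (-6.64 ± 0.12, adjusted p = 7.7e-11). AT2G37870 read 36.9, 79.3, 43.1 and 47.8 in Col-7 inflorescences, against 5232, 5209 and 5341 in Col-7 roots (-6.12 ± 0.16, adjusted p = 6.2e-10). The inflorescence arrays of both genes were all dim, so the differences are set by the root signal and the pseudocount. AT5G64100 (-5.82 ± 0.15), AT1G52070 (-5.71 ± 0.19) and AT5G10130 (-5.11 ± 0.14) followed, with Col-7 inflorescence arrays of 13.4, 37.5, 16.4 and 24.3 for AT5G64100, 1.18, 18.6, 20.4 and 2.77 for AT1G52070 and 6.59, 15.5, 2.45 and 1.56 for AT5G10130. All 15 wall or secreted members were lower in Col-7 inflorescences, with differences of -6.64 to -1.21, and 11 of them were dim on all 8 inflorescence arrays. In gir, AT4G33550 stood at -5.71 ± 0.14 and AT2G37870 at -4.93 ± 0.14 for inflorescences minus roots, so the gir roots were also far above the gir inflorescences.

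At the other end stood plastid genes. cemA read 3709, 4843, 5283 and 5486 in Col-7 inflorescences, against 2068, 2229 and 2223 in Col-7 roots (1.13 ± 0.13, adjusted p = 3e-05). atpH read 723, 1156, 1652 and 1163 in Col-7 inflorescences, against 545, 679 and 754 in Col-7 roots (0.76 ± 0.23, adjusted p = 0.014). The atpH call ended without Col-7 root replicate 1 (adjusted p = 0.061) and with inflorescence replicates 1 and 2 alone (adjusted p = 0.083). ycf4 (0.48 ± 0.22, adjusted p = 0.074) and AT5G06270 (0.27 ± 0.14, adjusted p = 0.1) did not pass. Without Col-7 inflorescence replicate 1 ycf4 passed (adjusted p = 0.0036), and AT5G06270 passed without Col-7 inflorescence replicate 3 (adjusted p = 0.022). psaA was the 1 plastid member lower in Col-7 inflorescences (-0.91 ± 0.31, adjusted p = 0.022), a call that ended without Col-7 root replicate 2 (adjusted p = 0.072) or 3 (adjusted p = 0.085). UGT88A1 was higher in Col-7 inflorescences by a small amount (0.23 ± 0.07, adjusted p = 0.017). That call ended after median centring (adjusted p = 0.33), with a replicate block (adjusted p = 0.051) and without Col-7 root replicate 2 (adjusted p = 0.053). The other 11 members that were higher in Col-7 inflorescences name no gene here. The brightest of them in Col-7 inflorescences averaged 13312.5 in gir inflorescences and 14935 in Col-7 inflorescences, and 365 in gir roots, against 691 in Col-7 roots.

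**Figure D4:**
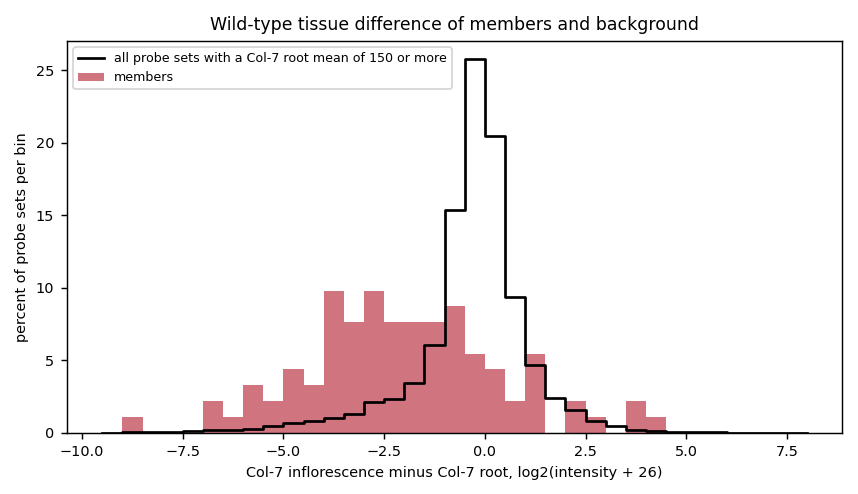
Share of probe sets (percent per bin of 0.5, y axis) by the difference of Col-7 inflorescences minus Col-7 roots on the log2(intensity + 26) scale (x axis), as bars for the 92 members and as a line for the 12785 probe sets with a Col-7 root mean of at least 150. The bars centre on -2.28, left of the line's median of -0.19, with a smaller group of members right of 0.

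In gir the members leaned toward roots less, which their choice fixes, since a fall in gir roots alone raises gir inflorescences relative to gir roots. Without a filter, so that no member was left out, 56 of 92 were lower in gir inflorescences than in gir roots and 22 were higher. Over the floor 41.0% of probe sets were called lower and 29.1% higher in that fit. Some members had root levels in gir close to those of inflorescences. For AT3G44940 gir inflorescences minus gir roots was -0.09 ± 0.11 (SE, adjusted p = 0.51), against -1.66 ± 0.13 for Col-7 inflorescences minus Col-7 roots. AT5G50130 stood at -0.07 ± 0.12 in gir (adjusted p = 0.63) and -1.13 ± 0.11 in Col-7, and AT2G33850 at -0.16 ± 0.10 in gir (adjusted p = 0.17) and -0.88 ± 0.10 in Col-7. The AT2G33850 difference in gir passed after median centring (adjusted p = 0.021).

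The named members sit on every chromosome, 13 on chromosome 1, 7 on chromosome 2, 6 on chromosome 3, 6 on chromosome 4, 10 on chromosome 5 and 5 on the plastid genome. The lectin pair and the plastid pair were the pairs of named members with no protein-coding gene between them. Just inside the threshold lay AT5G40140 at -0.60, ycf4 at -0.62 and scpl31 at -0.62. Just outside it lay AT5G60530 at -0.60, AT1G05370 at -0.60 and AT1G70500 at -0.59, whose groups also did not overlap. AT5G60530 read 315, 381 and 351 in gir roots and 464, 592 and 574 in Col-7 roots. scpl31 read 599, 781 and 662 in gir roots and 1289, 816 and 1117 in Col-7 roots, with gir replicate 2 just under Col-7 replicate 2. When each of the 14 arrays was left out in turn, 50 of the 92 members, 27 of them named, met the conditions every time.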

How the data were processed

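RNA from 14 root and inflorescence samples was measured on 1-colour Affymetrix ATH1 arrays, 1 array per sample. The deposited values are linear intensities made with MAS5 per the submitters' processing notes, already scaled, so no further normalization was applied. Intensities were transformed as log2(intensity + 26), where 26 is about the 20th percentile of all deposited values. Probe sets were tested if they reached the 40th percentile of an array on enough arrays to fill the smaller group. Each comparison had its own fit with limma 3.58.1 in R 4.3.3, adjusted after Benjamini-Hochberg over all probe sets tested at 0.05, and the fits were tested on simulated data. Whether replicates came from separate plants is not given in the labels, and p-values may reflect technical spread alone. The number of arrays limits the precision.

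The members, gene lists and roles were chosen with earlier results of these data known. Named genes are the 12 with the lowest root difference, members with a known role, the 5 with the lowest and those with the highest tissue difference, and the genes nearest the threshold, with a few others picked after their values were seen. Probe sets were named through the platform annotation. Same-numbered samples deviated together in inflorescences (correlations 0.587, 0.191, 0.203 and 0.516, every pair above 0.1). Differently numbered samples of replicates 3 and 4 also did (0.402 and 0.249), while others went as low as -0.538, so the pairing is uncertain. The main inflorescence fit took no pairs, and a fit with the number as a block was set beside it, from the data alone. In roots the correlations were 0.077, 0.007 and 0.017, and across tissues at most 0.023, so numbers were not taken as pairs. Sequences were not used here.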

Additional observations from a re-analysis of the deposited data

Results flagged for a closer look

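Among 94 groups of 4 inflorescence arrays of named members, 6 held 1 array far from the other 3, where chance gives about 1 in 20. In Col-7 inflorescences, AT4G12490 read 8.18 on replicate 2 against 23.4 to 26.9 on the others. AT1G50060 read 13.6 on Col-7 replicate 1 against 1.01 to 2.06 on the others, and AT1G24430 read 18.0 on Col-7 replicate 2 against 3.35 to 4.21. In gir inflorescences, AT3G01260 read 4.59 on replicate 1 against 19.8 to 20.2 on the others, and PR-1-LIKE read 7.97 on replicate 2 against 3.93 to 4.42. These 5 lie under the 40th percentile of their arrays. psaA is the bright one, at 193 on gir inflorescence replicate 1 against 404 to 455 on the others.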

How the results depend on the processing

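The number of members depends on the threshold of the root difference, with 185 probe sets at -0.5 and 31 at -0.8 in place of 92. Other settings gave 64 (pseudocount 100) to 121 (floor of 100), and leaving out 1 array 88 to 116. Not all of these are among the 92. A pseudocount of 100 kept 56 of the 92, median centring 74, and leaving out 1 array 81 to 91. Leaving out 1 array, members lower in Col-7 inflorescences than in Col-7 roots numbered 69 to 71 and those higher 13 to 16. In gir the same counts were 47 to 49 and 19 to 23, and a filter at the 60th percentile gave 24 lower. With a replicate block the counts were 70 and 14 in Col-7 and 47 and 20 in gir. Over all probe sets, 1636 were called in roots, 616 without a filter, 707 in a joint fit of the 14 arrays, 1281 with a replicate block and 814 to 1216 with 1 array left out (863 without gir replicate 1, 814 without gir replicate 2, 1038 without Col-7 replicate 2). In inflorescences the block gave 4865 in place of 3487. For single named genes, the tissue difference kept its call in 725 of 741 alternatives in Col-7 and 633 of 649 in gir. The root difference moved by more than the replicate spread in 20 of 470, reversing in none. All of these moves came from the pseudocount, for AT3G19430 with 8 and 100 and for the other genes with 100. With 100 the moved differences ran from -1.525 (AT3G19430) to -0.404 (AT5G40140). Some, such as those of AT5G40140, AT5G10970 (-0.469) and AT1G30515 (-0.469), then fell short of the root threshold, while others still passed it. Values under an array's 40th percentile limit what inflorescences can show for 49 members.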
